A study of Mus musculus with 3 samples.

Results

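The SOCS family and the Janus kinases were examined in mouse dendritic cells as 8 genes fixed by name: Socs1, Socs2, Socs3 and Cish, and Jak1, Jak2, Jak3 and Tyk2. All probes that the platform annotation gives to these symbols were taken, whatever their values. This gave 13 of the array's 25697 probes. Of these, 12 were detected on every array, and all 8 genes had at least 1 such probe, out of 8055 named genes detected on at least 1 array. Detected means a detection p under 0.01 in the deposited table.

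Dendritic cells were grown from the bone marrow of DBA mice aged 6 weeks, for 8 days with 20 ng/ml GM-CSF and 2 ng/ml interleukin-4, and those 2 cytokines are common to all groups. Fully mature cells (mDC) then had 24 h with 1 µg/ml lipopolysaccharide plus 50 µg/ml type II collagen. Semi-mature or tolerogenic cells (tDC) had 4 h with 10 ng/ml TNF-alpha plus the same collagen dose. Immature cells (imDC) have no stimulus and no time of harvest named in the labels, so a difference from imDC may also hold a difference in culture time. Each group is 1 Illumina bead array of total RNA, so stimulus, hours of stimulation and array cannot be told apart, and there is no replicate, test or p-value for any difference. The labels do not say how many mice gave the marrow. Marrow cultures with GM-CSF hold several myeloid cell types, and in such bulk RNA fewer cells of a type and less RNA per cell cannot be told apart.

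Receptors for many cytokines have no kinase of their own and use Janus kinases, which sit on the receptor's tail and, once the cytokine binds, phosphorylate it and the STAT transcription factors that dock there. GM-CSF signals through Jak2, interleukin-4 through Jak1 and Jak3, and type I interferon through Jak1 and Tyk2. The SOCS proteins and Cish are feedback inhibitors that STATs induce. Each has an SH2 domain, which binds phosphorylated tyrosine, and a SOCS box, which recruits a ubiquitin ligase, and Socs1 and Socs3 also block the kinase directly.

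The promoters of Socs3, Socs1 and Cish are shown because those genes had, in that order, the largest difference, the difference next in size and an even level between mDC and imDC cells among SOCS genes with a promoter sequence. The sequences are RefSeq's, build GRCm38.p6, and were found for 7 of the 8 genes. Each runs 5′ to 3′ on the gene's strand, over 250 bases before a transcript start and 50 bases from it, so that base 251 is the start. Capitals mark matches, on either strand, to 4 motifs: TTCNNNGAA for STAT factors, the same with 4 bases between TTC and GAA for the spacing STAT6 prefers, GAAA and GAAA with 2 bases between them for the core of the interferon response element, and GGGA and CC with 4 bases between them for NF-kB. The windows are chr11:117969317-117969616 (minus strand) for Socs3, chr16:10785487-10785786 (minus strand) for Socs1 and chr9:107296409-107296708 (plus strand) for Cish. The Socs3 start used, position 117969366, lies inside the annotated gene, whose outermost start is at 117970336 and was not searched.
Socs3: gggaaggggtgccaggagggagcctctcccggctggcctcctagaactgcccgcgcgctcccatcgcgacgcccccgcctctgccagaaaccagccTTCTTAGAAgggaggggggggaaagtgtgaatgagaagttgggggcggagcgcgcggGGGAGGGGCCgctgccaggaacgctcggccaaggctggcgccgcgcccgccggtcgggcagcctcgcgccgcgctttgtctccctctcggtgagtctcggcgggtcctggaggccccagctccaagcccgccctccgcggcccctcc
Socs1: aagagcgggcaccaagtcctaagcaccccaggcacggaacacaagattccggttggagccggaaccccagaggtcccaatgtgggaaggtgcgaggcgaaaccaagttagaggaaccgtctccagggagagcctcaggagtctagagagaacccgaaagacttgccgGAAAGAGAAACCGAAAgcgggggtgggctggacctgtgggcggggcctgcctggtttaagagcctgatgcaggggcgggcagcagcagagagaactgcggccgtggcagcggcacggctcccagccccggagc
Cish: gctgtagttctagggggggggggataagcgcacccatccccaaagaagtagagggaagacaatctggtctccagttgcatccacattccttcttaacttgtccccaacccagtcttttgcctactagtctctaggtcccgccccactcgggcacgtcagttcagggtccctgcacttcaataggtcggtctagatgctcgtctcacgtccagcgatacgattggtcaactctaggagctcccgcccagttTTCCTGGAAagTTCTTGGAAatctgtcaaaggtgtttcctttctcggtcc

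The Socs3 window held 1 STAT match (TTCTTAGAA, bases 97 to 105) and 1 NF-kB match (GGGAGGGGCC, bases 154 to 163). The Socs1 window held no STAT match and 2 overlapping interferon element matches (GAAAGAGAAA, bases 168 to 177, and GAAACCGAAA, bases 174 to 183). In Cish 2 STAT matches followed each other at the start itself (TTCCTGGAA, bases 251 to 259, and TTCTTGGAA, bases 262 to 270). Tyk2 had 1 NF-kB match, and the windows of Jak1, Jak2 and Jak3 had none of the 4 motifs. Over all 32851 promoter windows, 8.30% held the STAT motif and 0.457% held it 2 or more times, 3.44% held the interferon motif and 0.225% held it 2 or more times, and 20.7% held the NF-kB motif. No member window held the STAT6 spacing, which 6.95% of all windows held. A match is a run of letters and says nothing of whether a factor binds there.

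Socs3, which restrains signalling by the interleukin-6 receptor family and the G-CSF receptor, had signals of 10218 intensity units in mDC, 5322 in tDC and 3723 in imDC. The level was highest in mDC, lowest in imDC and between them in tDC. After background correction and quantile normalization the log2 levels were 13.27 in mDC, 12.33 in tDC and 11.82 in imDC. Socs3 was 2.74-fold higher in mDC than in imDC (log2 difference 1.45), 1.42-fold higher in tDC than in imDC (0.51) and 1.93-fold higher in mDC than in tDC (0.95). Of all genes compared, 93.7% had a smaller difference in either direction between mDC and imDC, 80.8% between tDC and imDC and 93.1% between mDC and tDC.

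Socs1, which inhibits the kinases of interferon and interleukin-4 receptors, had signals of 353 units in mDC, 205 in tDC and 237 in imDC. These are dim: the lowest signal called detected was 155 units in mDC, 156 in tDC and 160 in imDC. Socs1 was high in mDC only, and its tDC and imDC values lay close together. Its log2 levels were 8.19 in mDC, 6.95 in tDC and 7.12 in imDC, which is 2.10-fold higher in mDC than in imDC (log2 difference 1.07) and 2.36-fold higher in mDC than in tDC (1.24). Between tDC and imDC the log2 difference was -0.17. Of all genes compared, 95.9% had a smaller difference between mDC and tDC, 89.3% between mDC and imDC and 38.9% between tDC and imDC. The Socs1 calls were lost under other processing. Its log2 difference for mDC minus imDC was 0.75 without background correction, 0.77 on the authors' values, 0.92 with an offset of 50 and 0.94 under median scaling, and that for mDC minus tDC was 0.86 without background correction and 0.87 on the authors' values.

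**Figure D1:**
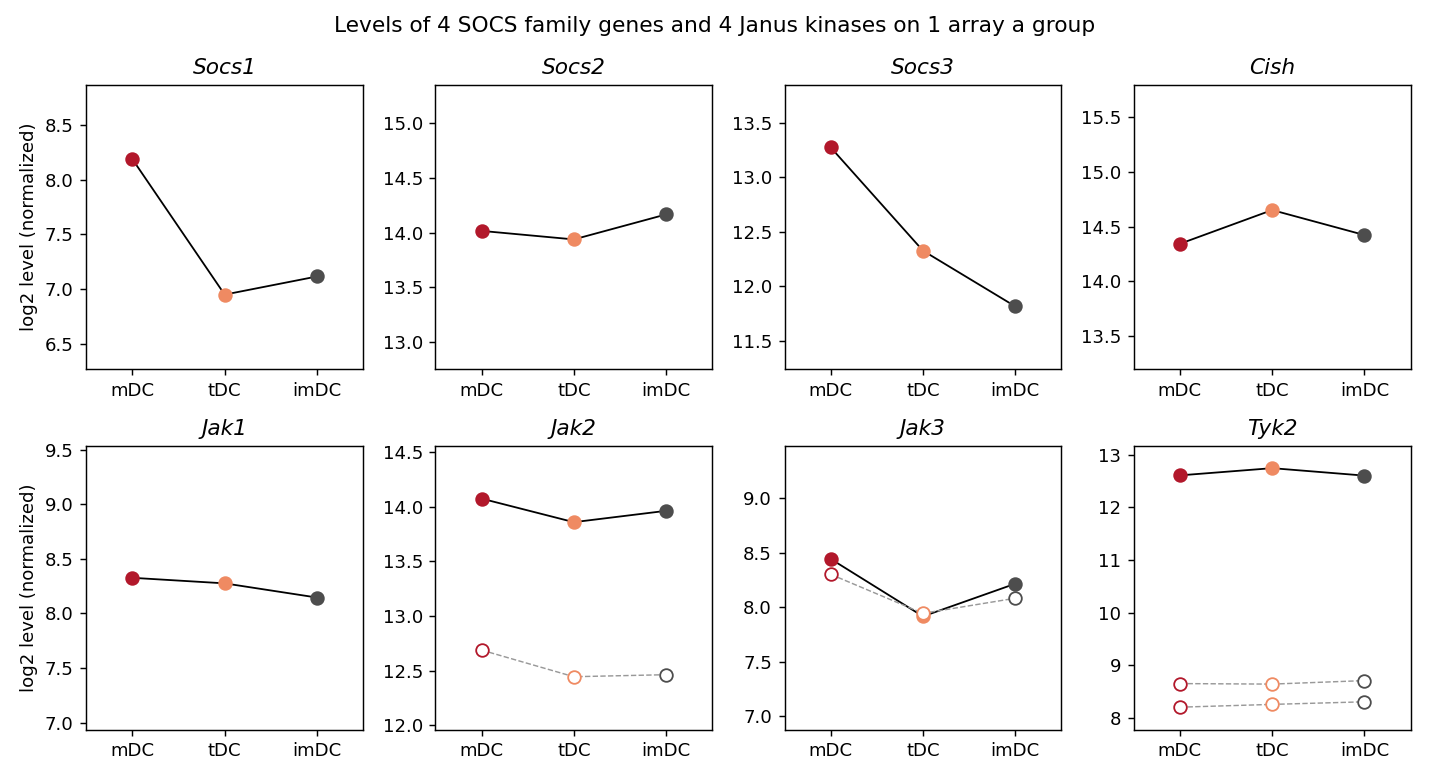
Normalized log2 level (vertical axis) of each member on the mDC, tDC and imDC arrays (horizontal axis), 1 point an array. Filled points are the probe that represents the gene and open points its other detected probes. Vertical scales differ between panels. Socs1 and Socs3 are highest in mDC, at 8.19 and 13.27, and the other genes differ by at most 0.53 between any 2 arrays.

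**Figure D2:**
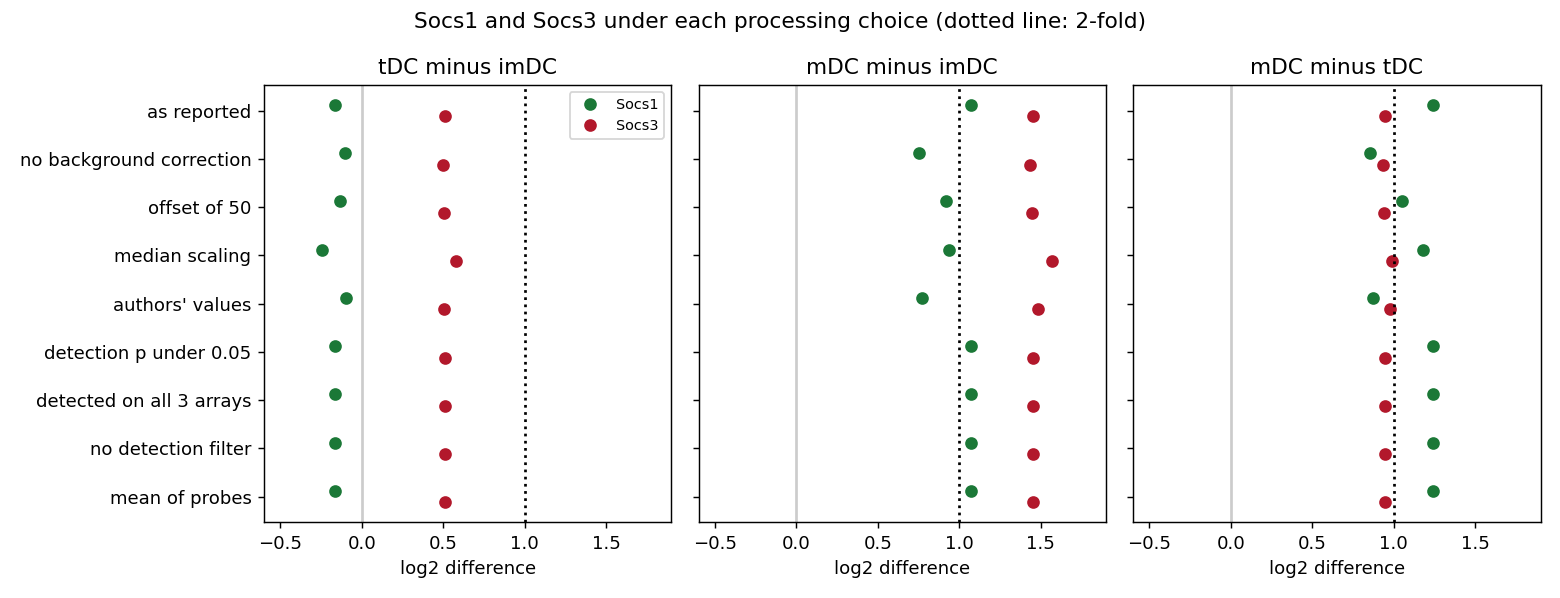
Log2 difference (horizontal axis) of Socs1 (green) and Socs3 (red) under each processing choice (vertical axis). The dotted line marks 2-fold. Socs3 lies between 1.43 and 1.57 for mDC minus imDC, and Socs1 between 0.75 and 1.07, on both sides of the line.

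Cish and Socs2, both known as targets of STAT5, the factor that GM-CSF activates, were bright on all arrays. Cish had 20452 units in mDC, 26130 in tDC and 21813 in imDC, and was highest in tDC. Its log2 difference was 0.23 for tDC minus imDC, -0.08 for mDC minus imDC and -0.31 for mDC minus tDC. Socs2, which limits growth hormone signalling, had 16590 units in mDC, 16074 in tDC and 18385 in imDC, and was highest in imDC. Its log2 differences were -0.23 for tDC minus imDC, -0.15 for mDC minus imDC and 0.08 for mDC minus tDC. The arrays thus put the 4 SOCS genes in different orders: mDC, tDC, imDC for Socs3, mDC, imDC, tDC for Socs1, imDC, mDC, tDC for Socs2 and tDC, imDC, mDC for Cish. The steps of Cish and Socs2 are all at most 1.24-fold, and whether neighbours in their orders differ cannot be told from 1 array each. The same holds for imDC and tDC in the order of Socs1, which lay 1.12-fold apart at dim signals.

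The level of each Janus kinase differed by at most 1.44-fold between any 2 arrays. Jak3, which pairs with the common gamma chain of interleukin receptors, had the largest difference of the 4. Its signals were 403 units in mDC, 321 in tDC and 409 in imDC on one probe and 376, 325 and 382 units on the other, so both probes were lowest in tDC. The log2 difference of mDC minus tDC was 0.53 on the first probe and 0.36 on the other, that of tDC minus imDC was -0.30 and -0.14, and that of mDC minus imDC was 0.23 and 0.22. For mDC against imDC the raw signals of both probes went the other way, slightly lower in mDC. Over the processing choices that Jak3 difference lay between 0.08 and 0.23.

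Jak2, the kinase of the GM-CSF receptor, was bright on 2 probes. One had 17255 units in mDC, 14954 in tDC and 15742 in imDC, and the other, designed on another transcript record, had 6603, 5767 and 5745 units. Both gave their highest value in mDC, with log2 differences of 0.22 and 0.24 for mDC minus tDC and 0.11 and 0.23 for mDC minus imDC. Another Jak2 probe was not well above background on any array (96.3 units in mDC, 94.5 in tDC and 104 in imDC, detection p 0.346 or more) and gave no fold.

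Jak1, which serves interferon, interleukin-4 and interleukin-6 receptors, had 381 units in mDC, 389 in tDC and 395 in imDC. Its log2 difference was 0.18 for mDC minus imDC, 0.13 for tDC minus imDC and 0.05 for mDC minus tDC, and the last was -0.01 under median scaling. The raw Jak1 signals put the arrays in the opposite order. Tyk2, the other kinase of the type I interferon receptor, had 3 detected probes. The brightest had 6238 units in mDC, 6995 in tDC and 6344 in imDC, and log2 differences of 0.14 for tDC minus imDC, 0.00 for mDC minus imDC and -0.14 for mDC minus tDC. On the other Tyk2 probes these lay between -0.10 and 0.01. The Tyk2 probes therefore did not share a sign for tDC minus imDC, and every value was small.

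Counted at 2-fold (a log2 difference of 1 or more either way), 0 of the 8 genes differed between tDC and imDC, against 4.90% of the 7884 genes compared, 2.88% higher and 2.02% lower. Between mDC and imDC 2 of 8 were higher, Socs1 and Socs3, and 0 were lower, against 12.1% of 7973 genes in either direction, 6.16% higher and 5.96% lower. Between mDC and tDC 1 of 8 was higher, Socs1, and 0 were lower, against 6.23% of 7831 genes in either direction, 3.44% higher and 2.80% lower. With 8 genes these counts are too small to set the family apart from other genes. The median log2 difference of the 8 was 0.01 for tDC minus imDC, 0.15 for mDC minus imDC and 0.15 for mDC minus tDC, beside 0.00, 0.00 and -0.02 over all genes. The median size of the difference, without its sign, was 0.20, 0.17 and 0.26 for the 8, beside 0.23, 0.30 and 0.22 over all genes. Both comparisons with imDC use the same imDC array, and both with mDC the same mDC array.

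The files allow 1 measure of error, how far a gene's own probes disagree, and it says nothing of variation between cultures. Over 1326 genes with 2 detected probes, the log2 differences of mDC minus imDC from the 2 probes disagreed by a median of 0.15, and by under 0.57 for 95% of genes. The mDC minus imDC differences of Socs3 and Socs1 were larger than that 95% limit, and those of the other 6 members were smaller. The limit pools genes of all signal levels. Socs1 and Socs3 have 1 probe each and Socs1 is dim, so the limit does not give their own error. For tDC minus imDC the limit was 0.45, and of the members Socs3 was above it, at 0.51. For mDC minus tDC it was also 0.45, with Socs1, Socs3 and the brighter Jak3 probe above it.

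**Figure D3:**
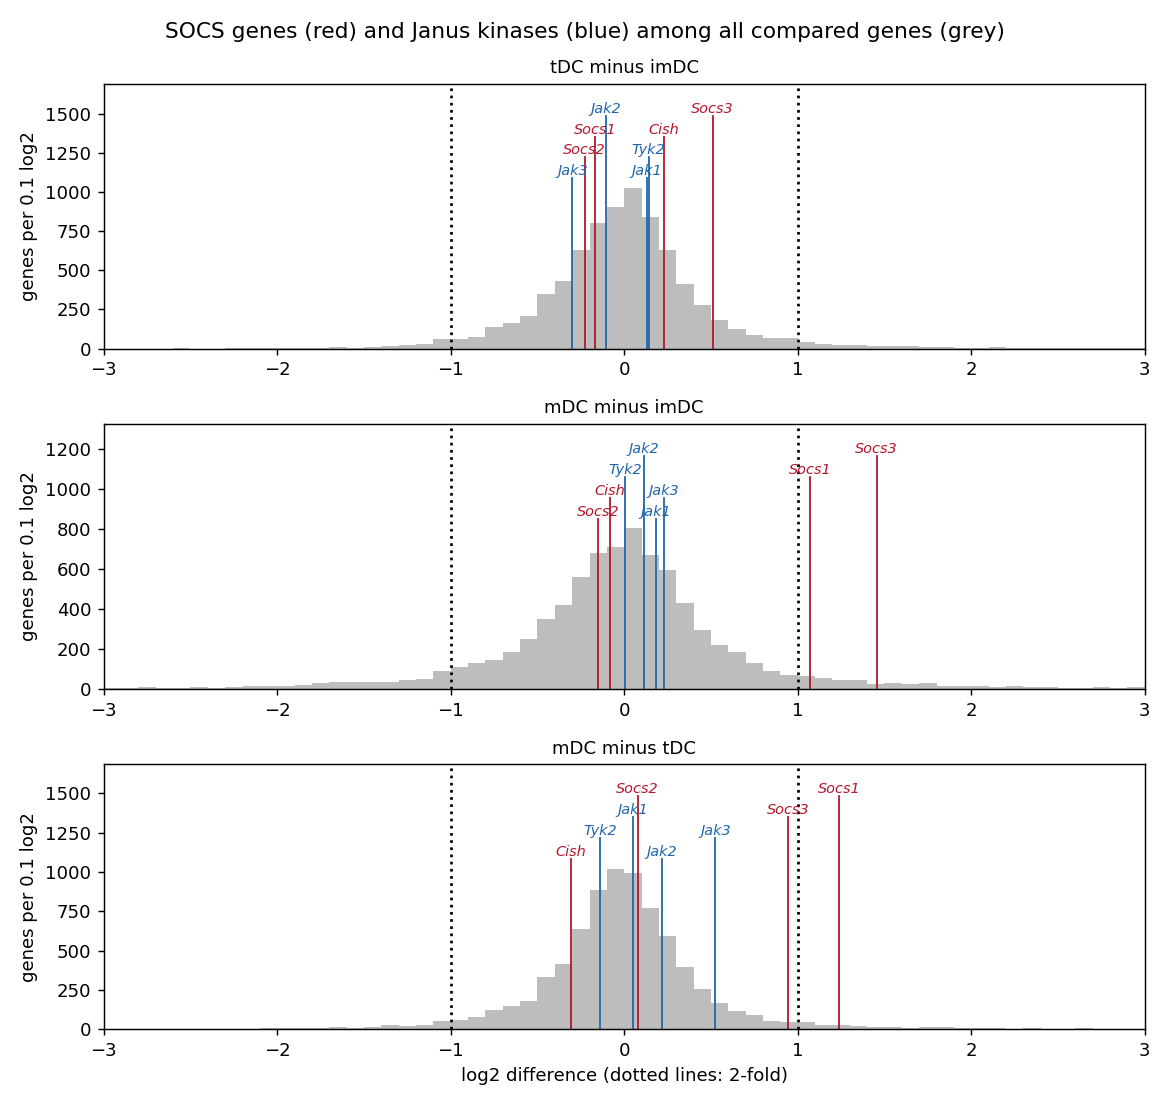
Number of genes (vertical axis) by log2 difference (horizontal axis, bins of 0.1) for tDC minus imDC, mDC minus imDC and mDC minus tDC, with the SOCS genes (red) and Janus kinases (blue) as lines whose height has no meaning. The axis leaves out the largest differences, and dotted lines mark 2-fold. Socs3 at 1.45 and Socs1 at 1.07 lie past the line for mDC minus imDC, and each Janus kinase is under 2-fold in every panel, with Jak3 at 0.53 for mDC minus tDC farthest from 0.

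The genes whose pattern over the 3 arrays was most like that of a member were taken as those nearest to it in the pair of log2 differences from imDC, among 7082 other named genes detected on all arrays. For Socs3 these were Rtn1 (distance 0.06), Smox (0.08) and Ltbp1 (0.08), and 4 genes lay within 0.1. For Socs1 they were Scarf1 (0.04), Tspo (0.10) and Ppm1h (0.10), and 1 gene lay within 0.1. The flat members had many neighbours within 0.1: 40 for Jak3 (Syt11, Macroh2a1 and Ccdc120 nearest), 159 for Cish (Tlnrd1, Hinfp and Erich1), 242 for Jak2 (Cndp2, Usp3 and Iffo2), 260 for Socs2 (Dlgap4, Cep63 and Faf1), 344 for Tyk2 (Cetn2, Bri3 and Prelid3b) and 370 for Jak1 (Ngdn, Mrpl49 and Nap1l4). With 3 arrays such likeness is weak.

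Among cytokines that signal through these kinases, 4 of 9 compared were higher at 2-fold in tDC than in imDC (2.88% of all genes). At the same cut 8 of 14 were higher in mDC than in imDC (6.16%) and 5 of 14 in mDC than in tDC (3.44%). In each comparison 0 were lower at 2-fold, though Il23a (log2 difference -0.71) and Osm (-0.36) were lower in mDC than in tDC by less. Ifng, Il10, Il27, Csf2 and Csf3 were detected in mDC only, so they entered only the comparisons with mDC. Il12a, Il13 and Il23a were not detected in imDC. A gene detected on 1 array of a pair could not come out lower there, so these counts are partly fixed by detection. Il6, whose receptor Socs3 restrains, had 2822 units in mDC, 685 in tDC and 264 in imDC, so its order over the arrays was that of Socs3. The share of all genes with that order is not given here, so a shared order, here or below, shows no link. Il6 was 17.2-fold higher in mDC than in imDC and 3.70-fold higher in tDC than in imDC. The genes of the interleukin-6 receptor chains, Il6ra and Il6st, were not above background on any array. Il10, which acts through Jak1 and Tyk2, had 374 units in mDC and was not well above background in tDC (108) or imDC (99.1). It was at least 4.57-fold higher in mDC than in imDC, and at least 2.60-fold without background correction. Ifng, the ligand of the interferon-gamma receptor, was detected in mDC only (310 units, against 131 in tDC and 104 in imDC). Its level there was at least 3.58-fold that of imDC, and at least 2.16-fold without background correction. A bound of this kind sets the bright array against the lowest detected level on the other, and so holds only for the processing it comes from. Ifnb1 was not above background on any array.

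The GM-CSF gene Csf2 was at least 4.01-fold, Ebi3, a subunit of interleukin-27, 3.12-fold, Il4 2.50-fold and Il27 at least 2.04-fold higher in mDC than in imDC. Without background correction the values were at least 2.35-fold for Csf2, 1.89-fold for Il4 and at least 1.47-fold for Il27. Il12a, a subunit of interleukin-12, which signals through Jak2 and Tyk2, was at least 94-fold higher in mDC and at least 5.32-fold higher in tDC than in imDC, and without background correction at least 42.9-fold and 2.94-fold. In tDC against imDC Il23a was at least 2.80-fold and Il4 2.59-fold higher, but both were under 2-fold without background correction (1.81-fold and 1.94-fold) and on the authors' values (1.80-fold and 1.96-fold). Over these ligands, bounds included, the log2 difference had a median of 0.90 for tDC minus imDC, 1.18 for mDC minus imDC and 0.81 for mDC minus tDC. These medians too are partly fixed by detection.

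Of 36 receptor genes in the list 31 were on the array and 19 were detected. Ifnar1, Il12rb1 and Il2rb, partner chains of genes named below, were not above background on any array. Il4ra and Il2rg, the common gamma chain, had no probe under these symbols. Of 19 receptor genes compared, 2 were higher and 0 lower at 2-fold in tDC against imDC (2.88% and 2.02% of all genes). In mDC against imDC 4 were higher and 1 was lower (6.16% and 5.96%). Between mDC and tDC 2 of 17 were higher and 1 was lower (3.44% and 2.80%). The 3 receptor genes of GM-CSF itself stayed under 2-fold: the log2 difference of mDC minus imDC was -0.78 for the alpha chain Csf2ra, 0.10 for the beta chain Csf2rb and 0.31 for Csf2rb2. Il2ra, the alpha chain of the interleukin-2 receptor, had 560 units in mDC, 257 in tDC and 232 in imDC and was 3.82-fold higher in mDC than in imDC. Il15ra was 2.49-fold, Csf3r, the G-CSF receptor, 2.52-fold and Ifnar2, a chain of the type I interferon receptor, 2.04-fold higher in mDC than in imDC. Ifnar2 was under 2-fold in 5 of the 8 alternatives, at 1.66-fold to 1.86-fold. Ifnlr1, the receptor of lambda interferons, was 2.15-fold lower in mDC than in imDC, with log2 differences of -0.75 without background correction, -0.76 on the authors' values and -0.93 with an offset of 50. In tDC against imDC Csf3r was 3.00-fold and Il12rb2 2.28-fold higher, the last at 1.97-fold without background correction and 1.99-fold on the authors' values. Over the receptors the log2 difference had a median of 0.19 for tDC minus imDC, 0.14 for mDC minus imDC and -0.16 for mDC minus tDC.

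Of 6 STAT factors and partners compared, 2 were higher at 2-fold in mDC than in imDC (6.16% of all genes). At that cut 2 were higher in mDC than in tDC (3.44%) and 0 in tDC than in imDC (2.88%). Irf9 (log2 difference 0.91) and Stat4 (0.61) were under 2-fold but also higher in mDC than in imDC. Stat2, which carries the type I interferon signal with Irf9, had 1456 units in mDC, 571 in tDC and 629 in imDC. It was 2.85-fold higher in mDC than in imDC, and its log2 difference between tDC and imDC was -0.04, so it shared with Socs1 a high value in mDC alone. Irf9 had a log2 difference of 1.34 for mDC minus tDC and -0.43 for tDC minus imDC. Stat5a was 2.01-fold higher in mDC than in imDC, which was under 2-fold without background correction, with an offset of 50, with median scaling and on the authors' values. Stat3, the factor downstream of interleukin-6, differed by 0.63 and Stat6, downstream of interleukin-4, by -0.05 for mDC minus imDC.

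Of 11 other brakes on these kinases compared, 0 differed by 2-fold between tDC and imDC (4.90% of all genes), and 1, Usp18, was past 2-fold between mDC and imDC (12.1% of all genes) and between mDC and tDC (6.23%). It was higher in mDC, 5.59-fold against imDC and 7.65-fold against tDC. Usp18 blocks the type I interferon receptor and is itself interferon-induced, and had 12426 units in mDC, 1670 in tDC and 2337 in imDC. The tyrosine phosphatase Ptpn1 was under 2-fold in each comparison, with log2 differences of 0.76 for mDC minus imDC and 0.89 for tDC minus imDC, and that of the ubiquitin ligase gene Cbl was 0.92 for mDC minus imDC. Among the 8 other SOCS proteins and ligase partners compared, Socs6 had 439 units in mDC, 844 in tDC and 1607 in imDC. It was 3.77-fold lower in mDC than in imDC and 2.01-fold lower in mDC than in tDC, and its log2 difference between tDC and imDC was -0.91. The order of Socs6 over the arrays was the reverse of that of Socs3. A second Socs6 probe was not detected on any array. Socs4 (0.46) and Socs5 (-0.66) were under 2-fold for mDC minus imDC, and the adaptors and cullins of the SOCS box ligase, Elob, Eloc, Cul5, Cul2 and Rbx1, lay between -0.35 and 0.27.

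Genes linked to single STATs, in lists drawn up from general knowledge, went different ways. Of 10 STAT3 linked genes compared, 6 were higher at 2-fold in mDC and 5 in tDC than in imDC (6.16% and 2.88% of all genes). The medians of their log2 differences were 1.10 and 1.15. The acute-phase genes Saa3 (487-fold in mDC, 25.7-fold in tDC, or 275-fold and 14.9-fold without background correction), Hp (31.2-fold in mDC, 5.11-fold in tDC) and Lcn2 (12.7-fold and 5.12-fold) had the order of Socs3 over the arrays, while Il1rn (2.62-fold and 3.14-fold) and Bcl3 (2.18-fold and 2.63-fold) were highest in tDC. Lcn2 reached 65567 units in mDC, the top of the measured range, so its difference can be understated. Of 14 STAT6 linked genes compared, 8 were lower and 1 was higher at 2-fold in mDC than in imDC (5.96% and 6.16% of all genes). In tDC 3 were lower than in imDC (2.02%), and the medians were -1.34 for mDC and -0.62 for tDC. The mannose receptor gene Mrc1 was 47.1-fold, Arg1 14.3-fold, Clec10a at least 12.5-fold, Cdh1 10.3-fold and Retnla 6.53-fold lower in mDC than in imDC, and the log2 difference of Mgl2 was -4.00, while the chemokine Ccl22 was 3.31-fold higher and Ccl17 differed by 0.00. Cd209a, detected in imDC alone, was at least 2.32-fold lower in tDC than in imDC.

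The 12 STAT5 linked genes went both ways, with a median of 0.08 for mDC minus imDC. At 2-fold 3 were higher and 1 was lower in mDC than in imDC (6.16% and 5.96% of all genes). Ccnd1, which encodes cyclin D1, was 27.6-fold lower and its relative Ccnd2 3.04-fold higher in mDC than in imDC, while the kinase gene Pim1 differed by -0.43 and Id2 by 0.24. Il2ra, given above, and Lta, a TNF family cytokine, 3.61-fold, were the others at 2-fold. Without background correction, and also with an offset of 50, the number lower in mDC than in imDC was 2. The even levels of Cish and Socs2 thus stood beside STAT5 linked genes that were higher, lower and under 2-fold. Over all lists reported here together, 35 of 92 genes (38.0%) differed by 2-fold between mDC and imDC, 15 of 87 (17.2%) between tDC and imDC and 26 of 88 (29.5%) between mDC and tDC, beside 12.1%, 4.90% and 6.23% of all genes. The lists were chosen with earlier results of these data known, so these shares are a description only.

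**Figure D4:**
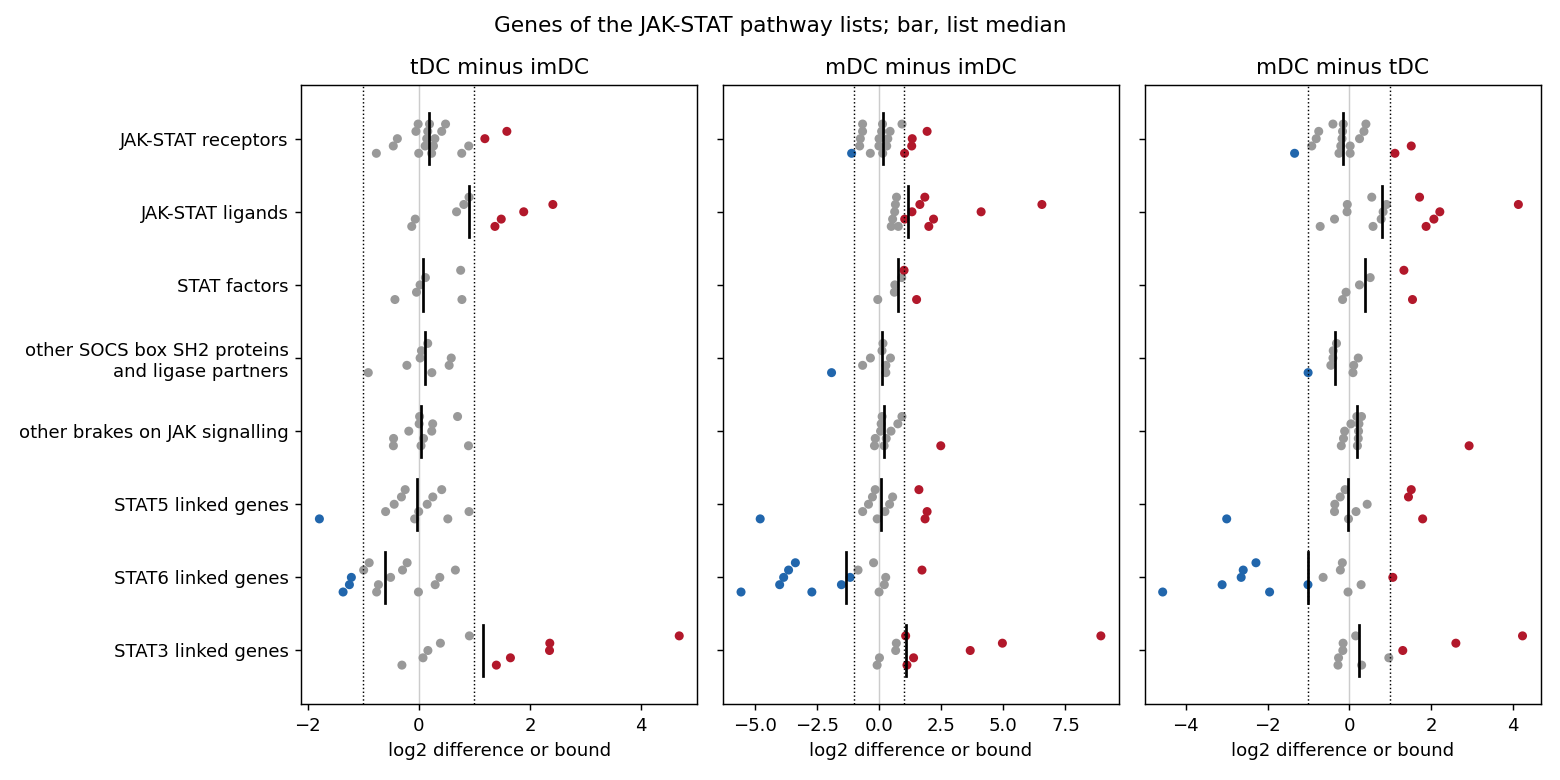
Log2 difference or bound (horizontal axis, scaled separately in each panel) of each gene in the pathway lists (vertical axis), with bars at list medians. Red points are higher and blue points lower at 2-fold. The STAT3 linked genes have a median of 1.10 for mDC minus imDC and 1.15 for tDC minus imDC, and the STAT6 linked genes -1.34 and -0.62.

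Cell type markers were read on the same arrays. Of 12 dendritic cell markers on the array 11 were detected, among them Itgax, Zbtb46, Cd74, H2-Ab1 and Ccr7 on every array, and Flt3 was not above background. None of the 11 was higher at 2-fold than in imDC. In mDC 3 were lower (5.96% of all genes), among them Itgax (3.88-fold) and H2-Ab1 (2.06-fold). In tDC 2 were lower (2.02%), among them Itgax (2.29-fold). Their summed level was 87305 in mDC, 112906 in tDC and 107489 in imDC, of which Cd74, H2-Ab1 and Fscn1 made 72.6% in mDC, 77.1% in tDC and 77.7% in imDC. All 14 neutrophil and granulocyte precursor markers on the array were detected. At 2-fold 6 of these were higher and 1 was lower in mDC than in imDC (6.16% and 5.96% of all genes), and 8 were higher in tDC against imDC (2.88%). All 14 were higher in tDC than in imDC by some amount, with log2 differences from 0.03 (Cxcr2) to 3.44 (Chil1). The summed level was 183696 in mDC, 146251 in tDC and 69404 in imDC. Between mDC and tDC 2 were higher and 3 lower at 2-fold (3.44% and 2.80% of all genes), with a median log2 difference of -0.22. The order of that sum over the arrays was that of Socs3, but without Lcn2 it was 119129 in mDC, 120242 in tDC and 64328 in imDC. Its part in the Socs3 result was not tested. The defining precursor markers Mpo (2677 units in mDC, 5148 in tDC and 2716 in imDC) and Elane (250, 604 and 365) were highest in tDC.

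Of 9 macrophage and monocyte markers on the array 7 were detected, with Msr1 and C1qa not above background. Of the 7, 3 were higher and 3 were lower at 2-fold in mDC than in imDC (6.16% and 5.96% of all genes). Cd14, Adgre1 and Ly6c1 were among the higher ones and Mertk, C1qb and C1qc among the lower ones, and the summed level was 63455 in mDC, 32623 in tDC and 11095 in imDC. Cd14, Adgre1 and Ly6c1 made 98.9% of that sum in mDC, and without them it was 677 in mDC, 1297 in tDC and 2221 in imDC, the opposite order. The list's median log2 difference was 0.06 for mDC minus imDC and -0.44 for tDC minus imDC. Of 8 mast cell and basophil markers on the array 7 were detected, with Tpsb2 not above background. Of these, 5 were higher at 2-fold in mDC than in imDC (6.16% of all genes) and 2 of 6 compared in tDC against imDC (2.88%). The summed level was 33651 in mDC, 12579 in tDC and 4429 in imDC. Hdc, which makes histamine and is also expressed by other myeloid cells, had 26092 units in mDC, 7421 in tDC and 1367 in imDC. Without it the mast cell sum was 7263 in mDC, 5336 in tDC and 3209 in imDC.

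Of 8 T and NK cell markers on the array 5 were detected and of 5 B and plasma cell markers 2, all dim. The summed level was 592 in mDC, 521 in tDC and 371 in imDC for T and NK cells, and 723, 378 and 165 for B and plasma cells. These sums include Cd3e, Cd3g and Cd79a, which were not above background in tDC or imDC. Klrd1 was highest in imDC and Cd3d in tDC. Cd79b alone made 85.0% of the B and plasma cell sum in mDC, 88.6% in tDC and 75.3% in imDC. Cd2, Ncr1, Gzmb, Ms4a1, Pax5 and Jchain were not above background on any array. The sums of the mast cell, T and NK and B cell lists, and of the macrophage list with its 3 brightest genes, had the order of Socs3 over the arrays. Their part in the Socs3 result was not tested.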

How the data were processed

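RNA of 3 samples, 1 array a group, was measured on Illumina MouseRef-8 bead arrays. Groups follow the cell type in the labels. The authors deposited an average signal per probe, a linear intensity that is not normalized, with its detection p-value, per the file headers. They also deposited log2 values whose 3 columns share 1 distribution (median 6.98), as quantile normalization gives. The submitters' processing notes name GenomeStudio 2011.1, and other steps are not given in the sources used here.

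Here the intensities were background corrected (normexp, parameters from the detection p-values, offset 16), quantile normalized and put on the log2 scale with neqc in limma 3.58.1 (R 4.3.3). Probes with a detection p under 0.01 on any array, 11556 of 25697, were kept. The annotation gave 1 symbol to 23978 probes, several to 0 and none to 1719, and 23962 were matched to RefSeq's gene table of GRCm38.p6. The brightest kept probe represented a gene, and every member probe is reported. Differences are of log2 levels, with no test, and counted at 2-fold. A gene detected on 1 array of a pair is given as a bound. The steps that make the differences were tried on simulated arrays, which says nothing of replicate error here. The text names all members, up to 4 list genes past 2-fold per comparison, the 3 nearest genes to each member and markers, and further list genes were named after their values were seen. The members and lists were chosen with earlier results of these data known. A further gene list is not reported here. Signals ran from 63.8 to 65567 units, and precision is limited by the 1 array a group. The 8 alternatives concerned background correction, offset, scaling, the authors' values, detection filters and probe choice.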

Additional observations from a re-analysis of the deposited data

How the results depend on the processing

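Over 8 alternatives, none of 192 values for the 8 members changed its fold by 1.5 times or more. Smaller shifts are not counted as moved: the log2 difference of Jak3 for mDC minus imDC lay between 0.08 and 0.23. The detection filters could not change these values, because every member was detected on all arrays. Averaging probes could not change Socs1, Socs2, Socs3, Cish or Jak1, which have 1 probe each. Of the 192 values 2 had another sign, Jak1 for mDC minus tDC under median scaling (-0.01) and Tyk2 for mDC minus imDC with the mean of its probes (-0.05). The count of members at 2-fold between mDC and imDC was 1 without background correction, with an offset of 50, with median scaling and on the authors' values, against 2 as reported. Socs1 was then at 0.75, 0.92, 0.94 and 0.77, while Socs3 was past 2-fold in all 8 alternatives (1.43 to 1.57). Between mDC and tDC the count was 0 without background correction and on the authors' values, where Socs1 was at 0.86 and 0.87, against 1 as reported. The cause was not tested. The count of 0 between tDC and imDC was found in all 8 alternatives. Of 590 values for list genes 36 moved by 1.5 times, 32 of them to a smaller size, and of 384 list counts 29 moved, 22 of them lower. The list genes at 2-fold between tDC and imDC numbered 11 to 16, against 15 as reported. Of the list genes past 2-fold, those under it without background correction were Il23a (0.85), Il12rb2 (0.98), Il4 (0.95) and Cd209a (-0.69) for tDC minus imDC, Stat5a (0.96), Ifnar2 (0.73), Ifnlr1 (-0.75), Il27 (0.56), Il4 (0.92), Bcl3 (0.94) and Cd209a (-0.67) for mDC minus imDC, and Socs6 (-0.87), Ifnlr1 (-0.93), Il15ra (0.97) and Ccl24 (-0.99) for mDC minus tDC. Past 2-fold but moved without background correction were also Lta (1.14), Ccnd1 (-4.18) and Clec10a (-2.70) for mDC minus imDC, beside Il10, Il12a, Csf2, Ifng and Saa3 as given above. The marker sums without single or bright genes were chosen after seeing the data. No paired analysis was possible because each group has 1 array, and no array could be left out for the same reason. Socs1 has 1 probe, with signals near the lowest detected ones.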
